A study of Mus musculus with 26 samples.

Results

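Total RNA of brown adipose tissue from Imp2 knockout mice was compared with that of wild-type littermates after a night in the cold. The members are 4 RNA sequencing libraries of the 26 samples in the series, 2 from Imp2-/- mice (libraries 18 and 19) and 2 from wild-type mice (16 and 17), chosen by the genotype and RNA type in their labels. They stand in 1 count table with 4 libraries of RNA recovered with an anti-IMP2 antibody from the same genotypes, and 2 more wild-type total RNA libraries (15 and 20) stand in a separate table. All mice were 10-week-old males on normal chow with a C57Bl/6J background, held at 4 °C overnight. They came from crosses of Imp2+/- parents, and the labels name no difference between the groups other than genotype. The deletion is not limited to fat by any label, and the labels do not say whether each library came from a separate animal. If libraries of a group share an animal or a pool, the p-values measure technical spread.

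IMP2, the product of Igf2bp2, binds mRNAs in the cytoplasm and affects their stability, location and translation. Brown fat burns lipid and glucose in mitochondria, and its uncoupling protein Ucp1 lets protons leak back across the inner membrane so that respiration releases heat. Cold drives this through noradrenaline, which also turns on lipid breakdown and, over hours, the synthesis of new lipid. The title of the series speaks of translation of Ucp1 and other mRNAs, and the comparison here asks whether the levels of such mRNAs differ in total RNA.

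The table lists 1189 genes, a selected part of the transcriptome, so that its CPM values, counts scaled to a fixed library total, are shares of the counts of listed genes and not of all reads. Summed counts over these genes were 2004064 and 1424024 in wild-type libraries 16 and 17, and 2489245 and 4916160 in knockout libraries 18 and 19. Every listed gene had over 100 counts in each of these libraries, so counting error was small beside the spread between libraries. Replicate libraries were further apart than counting error allows: chi-square over its degrees of freedom was 32.9 for the wild-type pair and 98.6 for the knockout pair. Igf2bp1, Igf2bp2 and Igf2bp3 are not among the listed genes, which left the genotype labels without a check by the deleted mRNA. Of the defining markers of brown fat, Ucp1 ranged from 5194 to 5979 CPM over the 4 libraries, and the lowest value of Cox7a1 was 1579.6 CPM. Of macrophage and leukocyte markers, none is among the listed genes, and their level was not measured here.

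Across 1189 genes, no difference between knockout and wild-type total RNA passed an adjusted p of 0.05 with edgeR's quasi-likelihood test, at 0 genes higher (0%) and 0 lower (0%). The smallest adjusted p was 0.201. At an unadjusted p under 0.05, 74 genes were higher in the knockout (6.22% of those tested) and 58 lower (4.88%). The test takes its spread from all 8 libraries and counts immunoprecipitates and total RNA as independent, while differences within a genotype tracked each other between them (r = 0.716 and 0.802 across genes), and the part of this in its p-values was not tested. A fit of the 4 total RNA libraries alone called 0 genes higher and 1 lower (Pabpc4). The same data gave 18 genes higher and 17 lower with DESeq2, and 0 and 0 with limma-voom. Wild-type library 17 weighed on the counts at an unadjusted p, which were 25 higher and 40 lower without it. It also had the largest share of counts on 3 unnamed transcripts that were left out, 29.2% against 11.6 to 12.7% in the other 3 total RNA libraries, and the part of this in the result was not tested. Nearly all of it lay on 1 noncoding RefSeq transcript that the files pair with no name, at 730582 counts in library 17 and 349362 in library 16. In 255 genes both knockout libraries lay above both wild-type libraries (21.4%), and in 258 both lay below (21.7%). When libraries 15 and 20 were brought in from the other table on a common scale, the knockout pair lay above all 4 wild-type libraries in 114 genes (9.59%) and below all 4 in 159 (13.4%).

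The differences among the listed genes were small. The median log2 ratio of knockout over wild type was 0.00 with quartiles at -0.15 and 0.15, and 75 of the 1189 genes differed by more than 0.5 in either direction. No gene was higher by more than log2 1, and 12 were lower by more than 1. The median 95% interval of a gene reached 0.36 to either side of its log2 ratio. In simulated data, each gene had the spread fitted for its level and all 8 libraries were drawn as independent. There edgeR called 90% of genes changed by log2 1 and 26% of those changed by 0.5. These shares do not cover genes with a wider spread or libraries that move together. Of the 12 genes lower by more than 1 in the real data, none was called. A change near 0.5 mostly went uncalled even in the simulated data at this number of libraries.

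**Figure D1:**
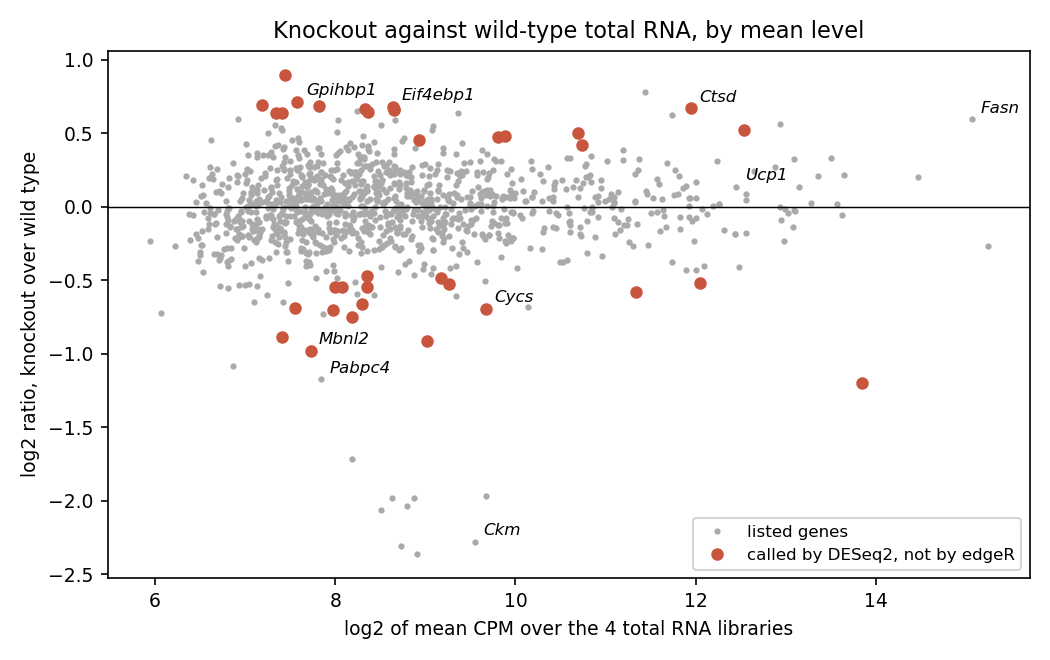
Log2 ratio of knockout over wild-type total RNA for each listed gene against the log2 of its mean CPM over the 4 libraries. Grey points are the 1189 listed genes and red points the 35 called by DESeq2 and not by edgeR, and the separate group near -2 at the bottom is 8 skeletal muscle markers and A930016O22Rik, a predicted gene.

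The lowest p-values among genes with less mRNA in the knockout belonged to Mbnl2, Ndn, Adhfe1, Cacybp and Actn4. Mbnl2, a muscleblind regulator of alternative splicing, stood at 285 and 278 CPM in the wild type and 122 and 162 CPM in the knockout. Both knockout libraries were below both wild-type ones, by log2 -0.98 ± 0.17 (SE, n = 2 per group) with an adjusted p of 0.201 (edgeR). In the other table's wild-type libraries Mbnl2 was at 162 and 166 CPM on the common scale, against 117 and 156 in the knockout, so the gap to those was narrow for library 19. Ndn, which encodes necdin, a growth suppressor from an imprinted locus, had 328 and 402 CPM in the wild type and 213 and 221 CPM in the knockout. That is log2 -0.75 ± 0.14 (SE, n = 2 per group), with an adjusted p of 0.201, and the knockout stayed below the 433 and 308 CPM of libraries 15 and 20. Adhfe1, a mitochondrial enzyme that oxidises hydroxybutyrate, had 295 and 328 CPM in the wild type and 186 and 198 CPM in the knockout, or log2 -0.70 ± 0.13 (adjusted p = 0.201). Cacybp, which binds the calcium sensor S100a6 and the Siah1 ubiquitin ligase, had 248 and 191 CPM in the wild type and 120.3 and 118 CPM in the knockout, or log2 -0.89 ± 0.17 (adjusted p = 0.201). Actn4, a nonmuscle cross-linker of actin filaments, had 379 and 393 CPM in the wild type and 246 and 242 CPM in the knockout, or log2 -0.66 ± 0.13 (adjusted p = 0.201). In all 5 genes the knockout libraries lay below all 4 wild-type libraries.

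**Figure D2:**
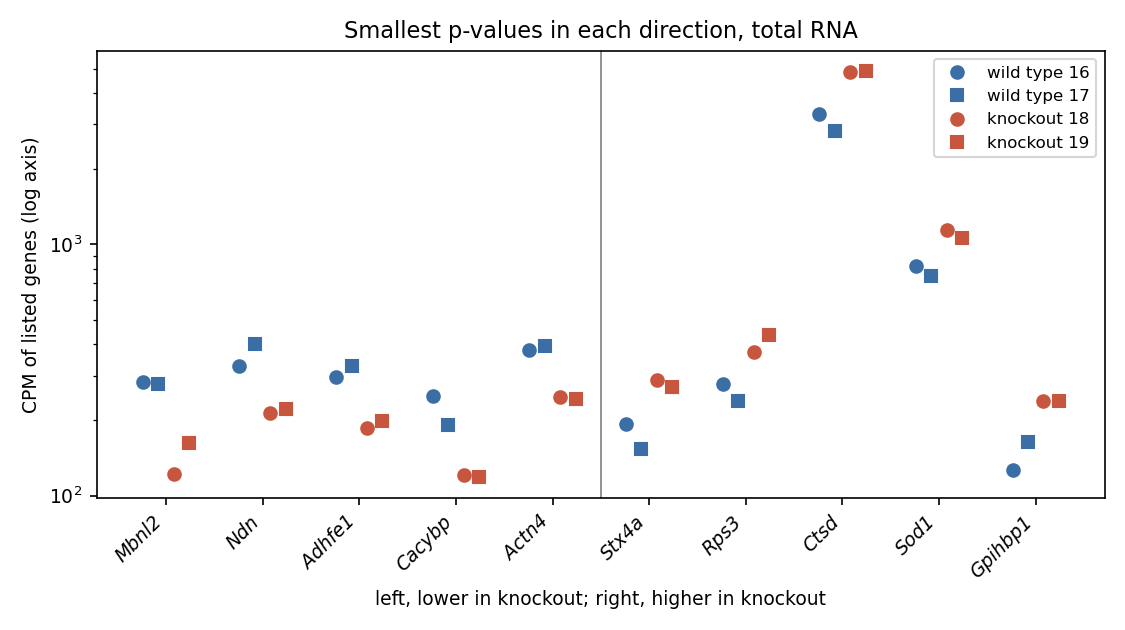
CPM on a log axis for the 5 genes with the smallest p-values in each direction, with 1 point per library: blue for wild type (16 circle, 17 square) and red for knockout (18 circle, 19 square). In each of the 10 genes the 2 knockout points lie on 1 side of the 2 wild-type points, as in Mbnl2 at 122 and 162 CPM against 285 and 278. The choice by p-value in these libraries favours such a gap, which 21.4% of all genes had upward and 21.7% downward.

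On the higher side the lowest p-values belonged to Stx4a, Rps3, Ctsd, Sod1 and Gpihbp1. Stx4a, the plasma membrane SNARE with which vesicles carrying the glucose transporter Slc2a4 fuse, had 193 and 153 CPM in the wild type and 288 and 269.6 CPM in the knockout. The ratio was log2 0.68 ± 0.14 (SE, n = 2 per group) at an adjusted p of 0.235 (edgeR), and the knockout lay above all 4 wild-type libraries. Ctsd, the lysosomal aspartyl protease cathepsin D, had 3302 and 2824 CPM in the wild type and 4842 and 4893 CPM in the knockout, or log2 0.67 ± 0.16 (adjusted p = 0.257), and was the most abundant of the 5. Both knockout libraries were above all 4 wild-type ones, which reached 3204 CPM in library 16 on the common scale. Rps3, a protein of the small ribosomal subunit, had 278 and 237 CPM in the wild type and 371 and 435 CPM in the knockout, or log2 0.64 ± 0.15 (adjusted p = 0.257). Sod1, the cytosolic copper-zinc superoxide dismutase, had 823 and 748 CPM in the wild type and 1141 and 1058 CPM in the knockout, or log2 0.48 ± 0.12 (adjusted p = 0.257). Library 20 of the wild type had 1542 CPM of Sod1 on the common scale, more than either knockout library. Gpihbp1, the endothelial protein that carries lipoprotein lipase to the capillary lumen, had 127 and 164 CPM in the wild type and 237 and 237 CPM in the knockout, or log2 0.71 ± 0.17 (adjusted p = 0.257). Wild-type libraries 15 and 20 had 239.9 and 268 CPM of it on the common scale, above both knockout libraries, so this difference was seen against libraries 16 and 17 alone.

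Genes for 3 proteins that bind the poly(A) tail of mRNAs, singled out after their values were seen, had negative ratios. Pabpc4, a cytoplasmic poly(A)-binding protein, had 354 and 282 CPM in the wild type and 138 and 145 CPM in the knockout, or log2 -1.17 ± 0.35 (SE, n = 2 per group) with an adjusted p of 0.288 (edgeR). Its wild-type level varied widely, up to 1038 CPM in library 15, and the knockout libraries lay below all 4. The fit of the 4 total RNA libraries alone gave it an adjusted p of 0.0484. Pabpc1, the main cytoplasmic form, had 117 and 218 CPM in the wild type and 103.6 and 108.04 CPM in the knockout (log2 -0.65, 95% interval -1.26 to -0.03). The value rested on library 17, since its log2 ratio was -0.14 without that library and -1.04 without library 16. Pabpn1, the nuclear form that controls tail length, had 230.3 and 235 CPM in the wild type and 122 and 164 CPM in the knockout (log2 -0.69, 95% interval -1.11 to -0.27). In all 3 the knockout lay below the 4 wild-type libraries, as in 13.4% of all genes, and none passed in the main test.

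Other translation genes had ratios of either sign. Eif4ebp1, which binds the cap-binding factor eIF4E and holds back cap-dependent translation until mTOR phosphorylates it, had 338 and 274 CPM in the wild type and 459.9 and 521 CPM in the knockout. Its ratio was log2 0.68 ± 0.17 (SE, n = 2 per group) at an adjusted p of 0.266 (edgeR), and the knockout lay above all 4 wild-type libraries. Eif3f, a subunit of the initiation factor that bridges mRNA and small subunit, was at log2 0.47 (95% interval 0.12 to 0.81), and Eef1b2, an elongation factor exchange subunit, at log2 0.40 (95% interval 0.03 to 0.77). Eif2b5, of the exchange factor that recharges eIF2, was at log2 -0.30. Over the 17 listed translation factors the median was log2 0.00, with 3 higher and 2 lower at an unadjusted p under 0.05, beside 6.22% and 4.88% of all genes. Of 21 cytosolic ribosomal proteins 13 had positive ratios with a median of log2 0.07, and Rps3, Rpl8 (log2 0.33) and Rps9 (log2 0.25) were under that p. The knockout exceeded all 4 wild-type libraries in 7 of the 21, beside 9.59% of all genes. Without library 18 the median of this list was log2 -0.01.

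Ucp1 mRNA did not differ beyond the spread. It had 5194 and 5489 CPM in the wild type and 5979 and 5758 CPM in the knockout, a log2 ratio of 0.14 ± 0.27 with a 95% interval of -0.48 to 0.75 (adjusted p = 0.891, edgeR). Wild-type libraries 15 and 20 had 10755 and 9661 CPM on the common scale, well above all of these. The interval does not reach a change of log2 1 in either direction. Cidea, a lipid droplet protein of brown fat, was almost level, with 12012 and 12128 CPM in the wild type and 11750.2 and 12649 CPM in the knockout. Cox8b, a cytochrome c oxidase subunit of brown fat and muscle, was at log2 0.33 (95% interval -0.05 to 0.71), and Cox7a1, another such subunit, at log2 0.20 (95% interval -0.14 to 0.55). Dio2, the deiodinase that makes active thyroid hormone in the cold, had 371 and 349.7 CPM in the wild type and 58.3 and 523 CPM in the knockout, and the knockout libraries were the lowest and the highest of the 4.

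Of the 12 listed thermogenesis genes, 2 were lower at an unadjusted p under 0.05 and none higher, beside 4.88% lower and 6.22% higher of all genes. Pank1, which starts coenzyme A synthesis, had 3384 and 2792 CPM in the wild type and 2258 and 1881 CPM in the knockout, or log2 -0.58 ± 0.14 (SE, n = 2 per group), with an adjusted p of 0.257 (edgeR). Kcnk3, a potassium channel of brown adipocytes, had 4794 and 3919.7 CPM in the wild type and 2946 and 3505 CPM in the knockout, or log2 -0.43 ± 0.15 (adjusted p = 0.367). In both genes the knockout lay below all 4 wild-type libraries, as in 13.4% of all genes. The median of the list was log2 0.06, against 0.00 for all genes.

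The mRNAs of the respiratory chain had a small positive median. Over 65 listed genes of complexes I to V it was log2 0.09, with 44 positive ratios, beside 598 of the 1189 genes. In the anti-IMP2 immunoprecipitates 22 of the 65 had positive ratios, with a median of log2 -0.10. Over all 1189 genes 574 were positive there, with a median of log2 -0.01. The 65 include cytochrome c (Cycs), a carrier and not a subunit. In total RNA, 5 of the 65 were higher and 1 lower at an unadjusted p under 0.05, and none passed the adjusted threshold. These shares were near or below the 6.22% and 4.88% of all genes. All 10 ATP synthase members had positive ratios, with a median of log2 0.15, or 0.31 without library 16. Atp5e, the epsilon subunit of the catalytic head, had 5362 and 4399 CPM in the wild type and 7440.3 and 6550.1 CPM in the knockout, or log2 0.52 ± 0.14 (SE, n = 2 per group) with an adjusted p of 0.288 (edgeR). Atp5c1, the central rotating stalk, was at log2 0.36 (95% interval 0.06 to 0.67), and Atp5j2, of the membrane part, at log2 0.30 (95% interval 0.00 to 0.59). No ATP synthase member lay above all 4 wild-type libraries in the knockout. Of Atp5e, wild-type library 20 had 11145 CPM on the common scale.

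Complex I had 19 positive ratios of 33, and Ndufb5 (log2 0.35) and Ndufb11 (log2 0.31), both of its membrane arm, were the highest. Cycs, cytochrome c itself, went the other way and was the 1 gene of the 65 above that was lower at an unadjusted p under 0.05. It had 944 and 1079 CPM in the wild type and 586 and 665 CPM in the knockout, or log2 -0.69 ± 0.16 (SE, n = 2 per group), with an adjusted p of 0.257 (edgeR), and lay below all 4 wild-type libraries. Cox10, which makes the heme of cytochrome c oxidase, had 381 and 378 CPM in the wild type and 281 and 266 CPM in the knockout and was at log2 -0.47. Mitochondrial ribosomal proteins were near even, with 24 positive ratios of 44 and a median of log2 0.04. Within them Mrps24 was at log2 0.67 (95% interval 0.22 to 1.11) and Mrpl35 at log2 -0.44 (95% interval -0.71 to -0.16). Of 29 import and dynamics genes Timm44, the matrix anchor of the import motor, was at log2 -0.52, Opa1, the inner membrane fusion protein, at log2 -0.30, and the chaperone Trap1 at log2 0.46.

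The lipogenesis list had the highest median of any list of 6 or more members, log2 0.34. It holds genes of triglyceride synthesis and the pentose phosphate pathway beside those of fatty acid synthesis. Of its 14 ratios 12 were positive, beside 598 of 1189, and 3 genes were higher at an unadjusted p under 0.05, beside 6.22% of all genes. In 11 of the 14 the highest of the 4 libraries was knockout library 19, as in 329 of all 1189 genes. Fasn, the fatty acid synthase, had 28466 and 26272 CPM in the wild type and 28006 and 54736 CPM in the knockout, so that library 18 was within the wild-type pair and library 19 well above it. Its log2 ratio was 0.60 with a 95% interval of -0.41 to 1.60. Acly, which makes cytosolic acetyl-CoA from citrate, had 2531 and 1549 CPM in the wild type and 2357 and 4637 CPM in the knockout (log2 0.78, 95% interval -0.22 to 1.78). Slc25a1, the carrier that exports citrate from mitochondria, had 2889 and 2499.9 CPM in the wild type and 3216 and 5102 CPM in the knockout (log2 0.63, 95% interval -0.10 to 1.36), and both knockout libraries were the higher ones. Library 20 of the wild type had 5104 CPM of Slc25a1 and 49176 CPM of Fasn on the common scale, against 4902 and 52592 CPM in library 19. Without library 19 the median of the list was log2 0.14, and without library 18 it was 0.50.

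The 3 members under that p were Acacb, Mlxipl and Mcat. Acacb, the acetyl-CoA carboxylase tied to the mitochondrial outer membrane, had 1453 and 1484 CPM in the wild type and 1970.0 and 1954 CPM in the knockout, or log2 0.42 ± 0.10 (SE, n = 2 per group) with an adjusted p of 0.266 (edgeR). Wild-type library 15 had 2627 CPM of it. Mlxipl, the carbohydrate-responsive transcription factor ChREBP, had 357 and 338 CPM in the wild type and 398 and 515 CPM in the knockout (log2 0.39, 95% interval 0.02 to 0.77), and its ratio was log2 0.20 without library 19. Mcat, of mitochondrial fatty acid synthesis, was at log2 0.47 (95% interval 0.06 to 0.88), or 0.31 without library 17. No member lay above all 4 wild-type libraries. Among lipid droplet genes G0s2, an inhibitor of the lipase Pnpla2, was above all 4, with 502 and 380.0 CPM in the wild type and 606 and 687 CPM in the knockout (log2 0.55, 95% interval 0.07 to 1.03). Pnpla2 itself was level, with 13137 and 12556 CPM in the wild type and 13251 and 11418 CPM in the knockout. In fatty acid oxidation Cpt2, the inner membrane carnitine transferase, was at log2 -0.37 (95% interval -0.63 to -0.12) and Acsl5, which activates fatty acids, at log2 0.59 (95% interval -0.01 to 1.18), and the median of the 19 listed members was log2 -0.03.

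Sequence upstream of lipogenic genes is shown for 3 members, as bases 250 to 1 before the RefSeq start site on GRCm38.p6, because they had the largest ratios of the list. Capitals mark CCAAT, the box bound by the general factor NF-Y, on either strand. Acly lies at chr11:100528001-100528250 on the minus strand, Fasn at chr11:120824548-120824797 on the minus strand and Slc25a1 at chr16:17928220-17928469 on the minus strand.
Acly: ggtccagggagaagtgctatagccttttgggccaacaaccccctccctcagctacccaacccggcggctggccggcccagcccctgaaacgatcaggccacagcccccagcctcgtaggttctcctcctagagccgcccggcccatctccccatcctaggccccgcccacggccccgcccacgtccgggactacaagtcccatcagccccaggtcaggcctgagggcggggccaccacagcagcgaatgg
Fasn: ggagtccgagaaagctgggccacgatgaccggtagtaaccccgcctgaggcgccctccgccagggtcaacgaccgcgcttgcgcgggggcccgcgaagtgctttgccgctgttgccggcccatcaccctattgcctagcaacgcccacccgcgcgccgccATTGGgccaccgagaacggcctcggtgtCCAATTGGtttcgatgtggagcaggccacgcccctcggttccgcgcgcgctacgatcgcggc
Slc25a1: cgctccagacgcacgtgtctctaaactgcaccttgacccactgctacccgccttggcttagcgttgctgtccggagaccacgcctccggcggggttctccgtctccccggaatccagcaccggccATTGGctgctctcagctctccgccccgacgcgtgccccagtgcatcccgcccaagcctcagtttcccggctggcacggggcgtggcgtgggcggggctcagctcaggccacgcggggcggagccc
CCAAT, read on both strands, was found in this window for 9 of the 11 lipogenic genes that the promoter table holds, in 33.8% of all 32851 promoters of the same length and in 36.9% of the 1083 promoters of listed genes. Acly, with the largest ratio, had no match. In Fasn 2 of its 3 matches overlap as CCAATTGG. The longer motif TCACNCCAC was in 1 of the 11 (Mlxipl) in 1.05% of all promoters and in 1.02% of those of listed genes. These are matches of letters only.

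Skeletal muscle markers had the 3 lowest ratios of the table, those of Tcap, Atp2a1 and Ckm. Leaving out Cox8b, which brown fat itself expresses, 9 markers are listed, and all had negative ratios with a median of log2 -1.98, 3 of them at an unadjusted p under 0.05 (4.88% of all genes were lower) and none past the adjusted threshold. Ckm, the muscle creatine kinase, had 577 and 1918 CPM in the wild type and 113 and 398 CPM in the knockout, or log2 -2.28 ± 0.83 (SE, n = 2 per group) with a 95% interval of -4.16 to -0.39 (adjusted p = 0.367, edgeR). Atp2a1, the calcium pump of fast muscle, had 270.1 and 1141 CPM in the wild type and 53.7 and 227 CPM in the knockout (log2 -2.30, 95% interval -4.43 to -0.18), and Acta1, skeletal actin, had 670.3 and 1934 CPM in the wild type and 129 and 533 CPM in the knockout (log2 -1.97, 95% interval -3.84 to -0.10). Tcap, a cap protein of titin, had 215 and 1393 CPM in the wild type and 58.7 and 250.1 CPM in the knockout, so that knockout library 19 was above wild-type library 16. In each of these 4 genes library 17 was the highest and library 18 the lowest of the 4.

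Wild-type libraries differed widely in these markers. Summed over the 9, the markers were at 27547, 15742, 3125 and 10794 CPM in wild-type libraries 15, 20, 16 and 17 on the common scale, and at 1018 and 2862 CPM in knockout libraries 18 and 19. Both knockout sums were below all 4 wild-type sums, and library 19 was close to library 16. As shares of the listed counts the markers took 0.311% and 1.09% in libraries 16 and 17 and 0.102% and 0.287% in 18 and 19. Without library 17 the median of the 9 was log2 -0.62, and without library 19 it was -3.46. In bulk tissue, fewer cells of a type and less RNA per cell cannot be told apart, and the part of muscle RNA in the difference of other genes was not tested. The same holds for the counts on unnamed transcripts, of which library 17 had the largest share of the 4. Desmin (Des), which smooth muscle and other cells also make, was at log2 -0.30 (95% interval -0.67 to 0.08).

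**Figure D3:**
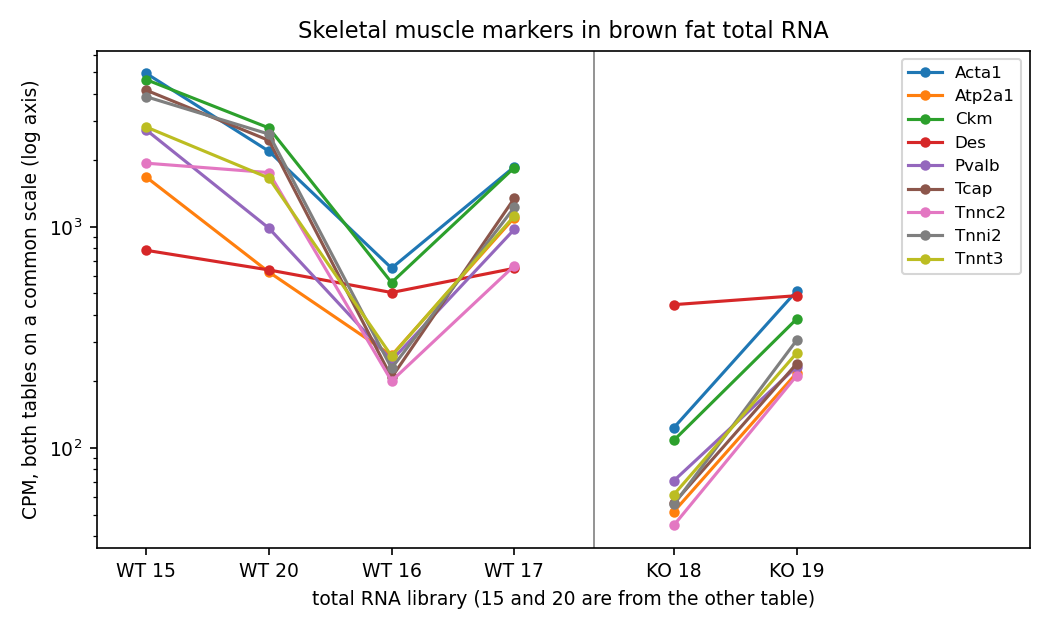
CPM on a common scale (log axis) of the 9 skeletal muscle markers in each total RNA library, with wild-type libraries left of the grey line and knockout libraries right of it. Lines join the values of a gene and carry no order of the libraries. Sums over the 9 run from 3125 to 27547 CPM in the wild type and are 1018 and 2862 CPM in the knockout.

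Upstream sequence is shown for Ckm, Atp2a1 and Acta1, which had the lowest p-values of the list, with capitals for CAGCTG, an E-box of the form that myogenic factors bind. The windows are again bases 250 to 1 before the RefSeq start site on GRCm38.p6, with Ckm at chr7:19410844-19411093 on the plus strand, Atp2a1 at chr7:126463074-126463323 on the minus strand and Acta1 at chr8:123894776-123895025 on the minus strand.
Ckm: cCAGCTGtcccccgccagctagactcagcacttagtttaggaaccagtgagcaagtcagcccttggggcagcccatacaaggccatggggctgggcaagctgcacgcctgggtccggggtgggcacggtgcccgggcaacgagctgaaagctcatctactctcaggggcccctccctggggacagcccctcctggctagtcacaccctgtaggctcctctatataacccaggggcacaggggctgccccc
Atp2a1: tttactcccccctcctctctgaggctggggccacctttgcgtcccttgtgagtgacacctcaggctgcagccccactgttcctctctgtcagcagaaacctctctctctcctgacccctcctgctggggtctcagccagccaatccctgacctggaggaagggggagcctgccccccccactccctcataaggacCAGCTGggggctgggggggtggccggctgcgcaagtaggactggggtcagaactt
Acta1: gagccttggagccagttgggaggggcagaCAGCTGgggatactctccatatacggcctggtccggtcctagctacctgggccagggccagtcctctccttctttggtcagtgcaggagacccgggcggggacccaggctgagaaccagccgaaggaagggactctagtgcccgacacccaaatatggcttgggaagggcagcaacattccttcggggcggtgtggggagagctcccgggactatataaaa
CAGCTG was in 4 of the 6 muscle markers in the promoter table (Acta1, Atp2a1, Ckm and Des), in 13.0% of all promoters and in 11.5% of the 1083 of listed genes. Its first base stands 249 bases before the start in Ckm, 55 in Atp2a1 and 221 in Acta1. The looser E-box CANNTG, which holds every CAGCTG, was in 6 of 6, in 66.2% of all and in 59.6% of those of listed genes. TATAAA was in 1 of 6, in 12.4% of all and in 5.54% of those of listed genes.

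Remaining lists were described by their members. Among 6 cytosolic heat shock genes, 5 had negative ratios with a median of log2 -0.37 and 2 were lower at an unadjusted p under 0.05. Over all 1189 genes, 591 ratios were negative and 4.88% were lower at that p. Without wild-type library 16 that median was log2 -0.08. Hspa8, the constitutive Hsp70, had 953 and 607 CPM in the wild type and 596 and 427 CPM in the knockout (log2 -0.61, 95% interval -1.21 to -0.01), and wild-type library 16 alone stood high. Hspb8, a small heat shock protein, was at log2 -0.42 (95% interval -0.76 to -0.08). Of 6 RNA-binding and splicing genes 5 were negative, with Mbnl2 lowest, Mbnl1, its close relative, at log2 -0.27, and a median of log2 -0.28. Branched-chain amino acid breakdown had 2 positive ratios of 10 and a median of log2 -0.13, with Bcat2, the mitochondrial aminotransferase, at log2 -0.30 and Bckdk, the kinase that switches the pathway off, at log2 0.23. Of 11 antioxidant genes, Sod1 was the highest and Gstm1, a glutathione transferase, the lowest at log2 -0.48 (95% interval -0.76 to -0.20). The proteasome, the citric acid cycle and glycolysis had medians of log2 0.08, 0.04 and 0.01, with no member at an unadjusted p under 0.05. The lysosome and the cytoskeleton, of 11 listed genes each, had 2 members higher and 1 lower at that p, with medians of log2 0.07 and 0.07. The shares over all genes were 6.22% higher and 4.88% lower.

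**Figure D4:**
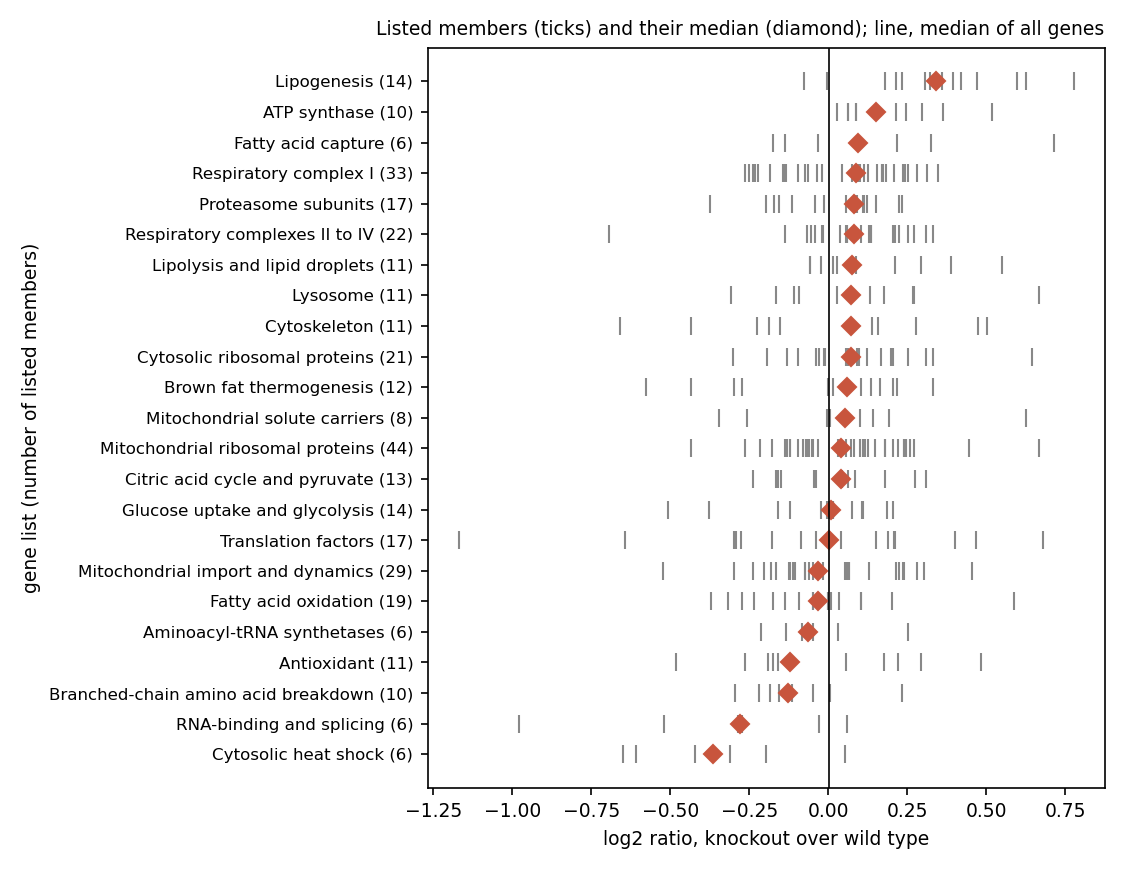
Log2 ratios of knockout over wild type (ticks) and their median (diamonds) for gene lists with 6 or more listed members, with the number of members in brackets and the median of all genes as a line. Lipogenesis is at the top with a median of 0.34 and cytosolic heat shock at the bottom with -0.37, and the muscle markers, at -1.98, are left out to keep the scale.

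Few markers of other cell types are listed. Of endothelial genes, Egfl7, a vessel factor, was at log2 0.27, and Gpihbp1 is given above. Red blood cell genes were at log2 -0.08 for Hbb-bs and -0.21 for Hba-a1, whose counts equal those of Hba-a2. Gpx3, Fasn, Gpd1, Thrsp and Pnpla2 were among the most abundant mRNAs of the table. Gpx3, the secreted glutathione peroxidase, was at 39485 and 45254 CPM in the wild type and 43048 and 27500.4 CPM in the knockout, with library 19 lowest. Gpd1, which makes glycerol 3-phosphate for lipid synthesis, was at 24407 and 17871 CPM in the wild type and 19317 and 29391 CPM in the knockout, and Thrsp, a regulator of lipogenesis, at 12152 and 11546 CPM in the wild type and 11195 and 16297 CPM in the knockout, with library 19 highest in both.

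DESeq2, run on the same counts, called 35 genes, and its log2 ratios for them differed from those of edgeR by at most 0.00886. The smallest adjusted p-values were those of Mbnl2 (0.000157), Ndn (0.000984), Cacybp (0.00114) and Cycs (0.00167). All 10 genes named above for their edgeR p-values were among the 35, with Eif4ebp1, Pank1, Pabpn1, Atp5e, Acacb, Timm44, Mrps24, Gstm1 and Cox10. Also among them was Cd59a, which shields cells from complement, with 839 and 517 CPM in the wild type and 315 and 405 CPM in the knockout (log2 -0.91). Cdo1, the cysteine dioxygenase of taurine synthesis, was at log2 -0.52, Ahnak, a giant scaffold protein, at log2 0.47 and Lgals1, a galectin, at log2 0.50. In the simulated data DESeq2 called 41% of genes changed by log2 0.5 and 96% of those changed by 1. The shares for edgeR were 26% and 90%. Among 989 genes left unchanged there, DESeq2 made 13 false calls and edgeR 1. The simulation does not show which of the 35 calls in the real data are true. Limma-voom gave the 35 genes no adjusted p under 0.05.

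Anti-IMP2 immunoprecipitates of the same genotypes gave values in libraries that total RNA does not use. Mbnl2 was at log2 -0.79 there, Pabpc4 at -1.62, Cycs at -0.77, Ctsd at 0.64, Eif4ebp1 at 0.80 and Ckm at -2.58. Atp5e, at log2 0.05, and Lgals1, at -0.05, had ratios near 0 in the immunoprecipitates, and Ucp1 was at -0.30. Across the 1189 genes the ratios in total RNA and in immunoprecipitates had a Pearson r of 0.800 and a Spearman rho of 0.680, a description with no test. These libraries are not separate evidence of the same size: the values of r above, for the order of sample numbers, show the 2 kinds of library moving together, and the labels do not say whether they share tissue.

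The listing of genes bears on this likeness. The log2 ratio in total RNA minus that in immunoprecipitates ran from -0.30 to 0.81, with 69 genes between -0.30 and -0.25 and none below. A listed gene with a log2 ratio under -0.30 in total RNA could therefore have only a negative one in the immunoprecipitates, so a shared negative sign is no result. At the other end 138 genes were above 0.3. The rule by which the authors listed genes is not given in the sources used here, and genes with a lower value of this measure are not analysed here. Counts of higher and lower genes therefore describe the listed genes alone.

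**Figure D5:**
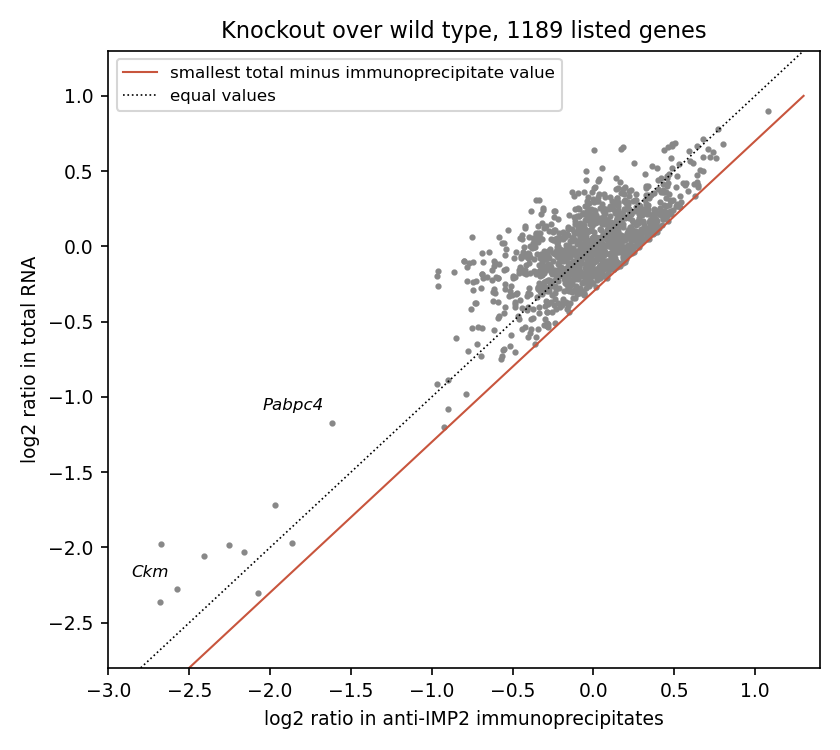
Log2 ratio of knockout over wild type in total RNA (vertical) against that in anti-IMP2 immunoprecipitates (horizontal) for the 1189 listed genes. The dotted line marks equal values and the red line the smallest difference between them, -0.30, below which no gene lies.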

How the data were processed

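The authors deposited whole-number read counts per RefSeq transcript, with no scaling, and the submitters' processing notes name TopHat2 2.0.8, Cufflinks 2.1.1 and mm10. How reads were counted, the strand setting and the listing rule are not given in the sources used. Of 1579 transcripts, 114 without a symbol were named from a RefSeq table (GRCm38.p6) and 3 stayed unnamed, with 11.6 to 29.2% of the counts of the 4 total RNA libraries, highest in library 17, and were left out. The transcript with the highest summed count stood for each gene. Counts were scaled by TMM and fitted with the quasi-likelihood test of edgeR 4.0.16 (R 4.3.3) over all 8 libraries of the table, whose 4 groups share 1 estimate of the spread (4 residual degrees of freedom), with Benjamini-Hochberg adjustment over 1189 genes. The common scale refits TMM on 12 libraries of both tables, whose lists were deposited separately. The code was tested on simulated data. Named were Ucp1, the 5 smallest p-values in each direction, the 6 most abundant genes, and members at either end of each list described, and any others were chosen after their values were seen. Of the genes so named, 1 is not reported here. The members of the comparison, the 39 gene lists and the tests were chosen with earlier results of these data known. Alternatives used DESeq2 1.42.0, limma 3.58.1 (voom), other scalings and filters, and fits without 1 library. Upstream sequences are from RefSeq.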

Additional observations from a re-analysis of the deposited data

Results flagged for a closer look

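In 7 of the 73 genes named in the text, 1 of the 4 wild-type total RNA libraries stood far from the other 3 on the common scale, measured as its gap to the nearest library over the range of all 4. Chance gives about 1 in 20 such groups. Library 20 was far above the others in Atp5e (0.85 of the range), Cox8b (0.849) and Sod1 (0.889), with 11145, 15174 and 1542 CPM. Library 15 was the lowest in Cidea (0.864), at 7936 CPM, and the highest in Pabpn1 (0.917), at 318 CPM. Library 16 was the highest in Hspa8 (0.888), at 924 CPM, and in Stx4a (0.875), at 187 CPM.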

How the results depend on the processing

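Both counts of calls were 0 in the main fit and under 16 of 18 alternatives. Of these 16, the added 2-fold filter was laid on 0 calls, and the fit with no filter tested the same 1189 genes. Neither could give another count. With unnamed transcripts in the library sizes, TMM again rescaled the libraries on the listed genes, so this fit could hardly differ from the main one. Its smallest adjusted p, 0.201 (edgeR), says nothing about the part of those transcripts in the result. DESeq2 called 18 genes higher and 17 lower, and a fit of the 4 total RNA libraries alone called 0 higher and 1 lower (Pabpc4). Fits without 1 library leave a group with a single one, and their counts of 0 say nothing about stability. The cause of the differences between tools was not tested. Of the 73 genes named, 9 changed sign when a library was left out, and their log2 ratios without 1 library ran as follows. Without library 19 at the low end and 18 at the high end, Cidea ran from -0.039 to 0.064, Dio2 from -2.63 to 0.53, Gpd1 from -0.13 to 0.47 and Thrsp from -0.082 to 0.46. Without library 18 at the low end and 19 at the high end, Cox7a1 ran from -0.019 to 0.39, Gpx3 from -0.63 to 0.023, Hba-a1 from -0.53 to 0.052, Hbb-bs from -0.24 to 0.054 and Pnpla2 from -0.17 to 0.045. Upper-quartile scaling moved the median of all genes to log2 0.039, the largest shift of any scaling. Robust moderation in edgeR, chosen after seeing the data, gave 0 calls. With 2 libraries per group, most changes of log2 0.5 in the simulated data were not called. No paired analysis was possible because the labels give the groups no shared replicate numbers.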

Other observations

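Igf2bp2 lies on chromosome 16 (22059009 to 22163299, GRCm38.p6). The window of 10 Mb around it was chosen after values were seen. It holds 11 listed genes, of which 8 had negative log2 ratios, with a median of -0.16. Over all 1189 genes, 591 ratios were negative and the median was 0.00. The 4 nearest, at 1.37 to 1.55 Mb, were Eif4g1 (log2 -0.29), Psmd2 (-0.16), Ap2m1 (-0.53) and Eif2b5 (-0.30). Slc25a1, at 4.13 Mb, was at 0.63. No test was run on these values.

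A930016O22Rik, a predicted gene that no list holds, had 295 and 882 CPM in the wild type and 60.8 and 216 CPM in the knockout, or log2 -2.06, a ratio among those of the muscle markers.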
